A study of Mus musculus with 6 samples.

Results

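The Hox cluster genes of LN endothelial cells were taken from 6 GeneChip arrays as every gene whose symbol in the platform table is Hox, a cluster letter from a to d and a number. A probe set was used only where the table gave it a single gene, and the brightest probe set of a gene, by its mean over the 6 arrays, stands for it. This gave 33 genes of the 39 Hox cluster genes in the RefSeq table used, among 18193 genes with a probe set of their own. By cluster there were 9 genes of Hoxa, 9 of Hoxb, 7 of Hoxc and 8 of Hoxd. Hox genes without a probe set of their own are not described.

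Hox genes encode homeodomain transcription factors that give cells their position along the axis of the embryo and the limbs. They lie in 4 clusters, and genes with the same number in different clusters are called paralogs. Within a cluster the low numbers are in general used early and toward the head and the high numbers late and toward the tail or the tip of a limb, and many adult cells, vessel cells among them, keep a part of this pattern. The proteins bind DNA together with cofactors of the Pbx and Meis families, and Polycomb and Trithorax proteins hold the clusters silent or active.

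All arrays were made from C57BL/6 mice aged 6 weeks, without treatment, whose skin-draining and mesenteric LN were pooled, digested with enzymes and depleted of CD45+ cells. Nodes from several positions of the body are therefore mixed in each sample. The CD31+ group (3 arrays, replicates 1 to 3) carries the cell type word LEC and the double-positive group (3 arrays, replicates 1 to 3) the cell type word BEC. In the gates of the study, LEC carry gp38 and CD31 whereas BEC carry CD31 without gp38, so the 2 words of each label name opposite groups. The arrays are named here by the gate word. Every difference is the mean log2 value of the double-positive arrays minus that of the CD31+ arrays, and a reading by the cell type word would turn every sign. Of 10 lymphatic endothelial markers, limma called 7 higher and 0 lower in the double-positive arrays. Of 10 blood endothelial markers limma called 0 higher and 6 lower, where 0.879% of all genes were called higher and 0.176% lower. The groups overlapped for Prox1 of the lymphatic list, with a difference of 0.07, and for Sox7 of the blood list, with 0.18. Prox1 had 6.73, 6.56 and 9.20 on the double-positive arrays and 7.32, 6.92 and 8.04 on the CD31+ arrays. These values come from its brightest probe set alone. In diaphragm and colon, the study's qPCR gave substantially more Prox-1 in cells carrying gp38 and CD31 than in those carrying CD31 without gp38. Those tissues are not on these arrays. The RNA (20 ng) went through 2 rounds of amplification, and the deposited values are log2 abundances from GCRMA with a floor at 2.39. Since the arrays hold pools of sorted cells, fewer cells of a type and less RNA per cell cannot be told apart, and the number of arrays limits the precision.

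Hoxd10, Hoxd9 and Hoxd8, which follow each other directly in the Hoxd cluster, lay higher on every double-positive array than on any CD31+ array. Hoxa9, Hoxa5 and Hoxb4 lay lower, also without overlap of the groups. Groups lay apart as higher for 9.09% of the Hox genes against 16.9% of all genes. They lay apart as lower for 9.09% against 3.42%. Over all probe sets at the deposited scaling, limma called none of these genes. The start regions of Hoxd10, Hoxd9 and Hoxd8 are shown because these genes lie side by side and had differences of the same sign. That of Hoxa9 is shown because this gene is the paralog of Hoxd9 and had a difference of the opposite sign. Each window runs from 250 bases before to 50 bases after the annotated start, 5′ to 3′ on the strand of the gene, from RefSeq on GRCm38.p6. Those of Hoxd10 (chr2:74691641-74691940), Hoxd9 (chr2:74697513-74697812) and Hoxd8 (chr2:74704365-74704664) are on the plus strand and that of Hoxa9 (chr6:52227321-52227620) is on the minus strand. Capitals mark matches to CCAAT on either strand.
Hoxd10: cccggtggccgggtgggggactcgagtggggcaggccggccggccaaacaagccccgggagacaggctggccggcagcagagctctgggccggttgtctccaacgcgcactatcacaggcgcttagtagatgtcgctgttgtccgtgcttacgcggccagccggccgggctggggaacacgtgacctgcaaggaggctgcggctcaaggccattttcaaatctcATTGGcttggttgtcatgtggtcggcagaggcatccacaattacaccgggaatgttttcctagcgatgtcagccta
Hoxd9: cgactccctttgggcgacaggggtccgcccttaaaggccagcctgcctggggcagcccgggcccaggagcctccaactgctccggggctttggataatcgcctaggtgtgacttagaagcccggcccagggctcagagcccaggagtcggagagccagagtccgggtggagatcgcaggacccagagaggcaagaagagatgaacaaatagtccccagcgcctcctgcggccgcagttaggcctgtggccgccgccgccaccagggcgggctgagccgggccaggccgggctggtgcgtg
Hoxd8: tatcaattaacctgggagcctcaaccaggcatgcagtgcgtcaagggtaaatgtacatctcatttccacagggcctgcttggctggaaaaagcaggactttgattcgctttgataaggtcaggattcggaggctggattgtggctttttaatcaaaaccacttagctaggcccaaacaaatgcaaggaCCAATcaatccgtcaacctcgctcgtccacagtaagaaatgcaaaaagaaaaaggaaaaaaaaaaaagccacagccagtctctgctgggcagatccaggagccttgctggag
Hoxa9: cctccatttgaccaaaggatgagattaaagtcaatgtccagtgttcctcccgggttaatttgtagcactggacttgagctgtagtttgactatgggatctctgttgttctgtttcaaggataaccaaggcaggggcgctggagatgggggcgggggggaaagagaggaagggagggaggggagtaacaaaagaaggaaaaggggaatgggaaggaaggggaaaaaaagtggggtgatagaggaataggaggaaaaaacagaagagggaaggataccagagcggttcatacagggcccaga

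These windows differed in base composition. That of Hoxd10 had 22 CG dinucleotides and 62.7% G and C, that of Hoxd9 20 and 68.3%, that of Hoxd8 6 and 46.7% and that of Hoxa9 4 and 49.7%, against a median of 7 CG dinucleotides over 32851 windows of the same length. CCAAT was found once for Hoxd10 and once for Hoxd8, and 37.4% of all windows hold it. None of the 4 windows held TGATNNAT, a Pbx and Hox motif present in 8.85% of all windows, TGACAG, a Meis motif present in 19.2%, the homeodomain core TAATTA, present in 5.29%, or TATAAA, present in 13.6% (both strands each). The table held windows for 19 of the 33 Hox genes.

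Hoxd10, Hoxd9 and Hoxd8 lay higher on all 3 double-positive arrays than on any CD31+ array. Hoxa9, Hoxa5 and Hoxb4 lay lower. The differences ran from 2.59 for Hoxd10 to -1.48 for Hoxa9 on the log2 scale. At 5% FDR limma called 0 of the 33 genes higher and 0 lower, where 0.879% of all genes were called higher and 0.176% lower. By unadjusted p under 0.05 the test gave 3 higher and 3 lower, or 9.09% each way, against a background of 12.5% higher and 2.12% lower. Under the replicate block limma again called 0 and 0 (background 0.011% and 0%) (3 and 3 by unadjusted p under 0.05) (background 12.6% and 2.06%). The groups did not overlap for 3 genes in each direction, or 9.09% each way, where 16.9% of all genes lay apart as higher and 3.42% as lower. Subtracting from each array the median of its bright probe sets lowers every difference by 0.68. Hoxd10, Hoxd9 and Hoxd8 then lay at 1.91, 0.73 and 0.85, still higher, while genes at the floor in both groups took on a difference of that size.

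**Figure D1:**
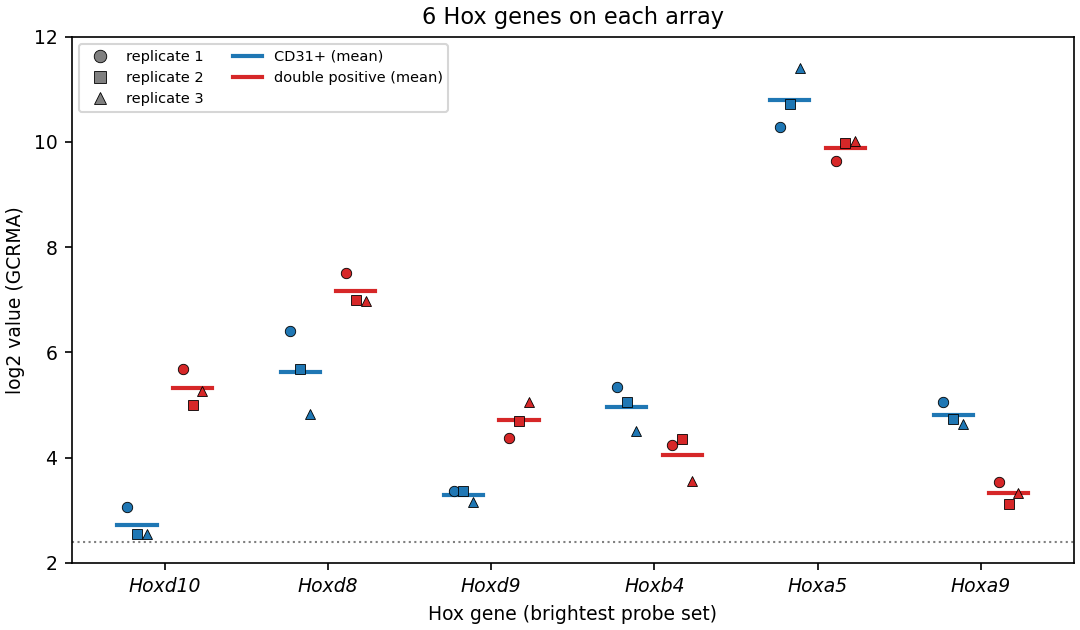
Log2 values (GCRMA, y axis) of the 6 Hox genes with an unadjusted p under 0.05 or a value of at least 5 on at least 3 arrays, each at its brightest probe set (x axis). Points are arrays, with 1 marker shape per replicate number, bars are group means and the dotted line is the floor at 2.39. Hoxd10, Hoxd8 and Hoxd9 are brighter on the 3 double-positive arrays and Hoxb4, Hoxa5 and Hoxa9 on the 3 CD31+ arrays, without overlap of the groups.

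Hoxd10, known in blood vessels as a factor of resting endothelium, had log2 values of 5.69, 5.0 and 5.26 on double-positive replicates 1 to 3 and of 3.07, 2.55 and 2.55 on CD31+ replicates 1 to 3. CD31+ replicates 2 and 3 were at the lowest value of this probe set, so that no fold on the linear scale is given, and CD31+ replicate 1 lay above it, while every double-positive array was at 5.0 or above after rounding. The difference was 2.59 (standard error 0.255, 95% confidence interval 1.90 to 3.28, limma adjusted p = 0.052), with means of 5.32 ± 0.351 (SD, n = 3) and 2.73 ± 0.299 (SD, n = 3). It reached 5 on only 2 arrays before rounding, so it did not enter the filtered test described below.

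Hoxd9, a patterning gene of the limb and the posterior trunk, had 4.38, 4.70 and 5.05 on the double-positive arrays and 3.36, 3.37 and 3.16 on the CD31+ arrays. All 3 double-positive values lay above the highest CD31+ value. The difference was 1.41 (standard error 0.199, limma adjusted p = 0.0982), or 2.66-fold.

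Hoxd8, which has been studied as a factor of lymphatic vessel growth and maintenance, was read by a pair of probe sets. At the brightest it had 7.51, 7.0 and 6.98 on the double-positive arrays and 6.40, 5.68 and 4.82 on the CD31+ arrays, so that the difference was 1.53 (standard error 0.467, limma adjusted p = 0.411). Both groups were well above the floor, and the CD31+ arrays varied more, with an SD of 0.791 against 0.297. At the other probe set Hoxd8 had 5.27, 4.62 and 4.47 against 3.15, 2.71 and 2.69, a difference of 1.94 (standard error 0.276, limma adjusted p = 0.1). The groups did not overlap at either probe set.

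The other measured Hoxd genes did not share these values. Hoxd1 and Hoxd3 on one side of the trio and Hoxd11, Hoxd12 and Hoxd13 on the other stayed between 2.39 and 2.51 on all 6 arrays, with differences of at most 0.01 in size. Both probe sets shared by Hoxd3 and Hoxd4 lay between 2.39 and 2.69. Signal in the Hoxd cluster was thus seen at its central genes Hoxd8 to Hoxd10, and a value at the floor does not show that a gene is silent, only that its probe set gave no value above its lowest. Outside the cluster, Evx2, the homeobox gene next to Hoxd13, was at 2.39 on every array, and Mtx2, the mitochondrial gene next to Hoxd1, differed by 0.59 (limma adjusted p = 0.659).

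**Figure D2:**
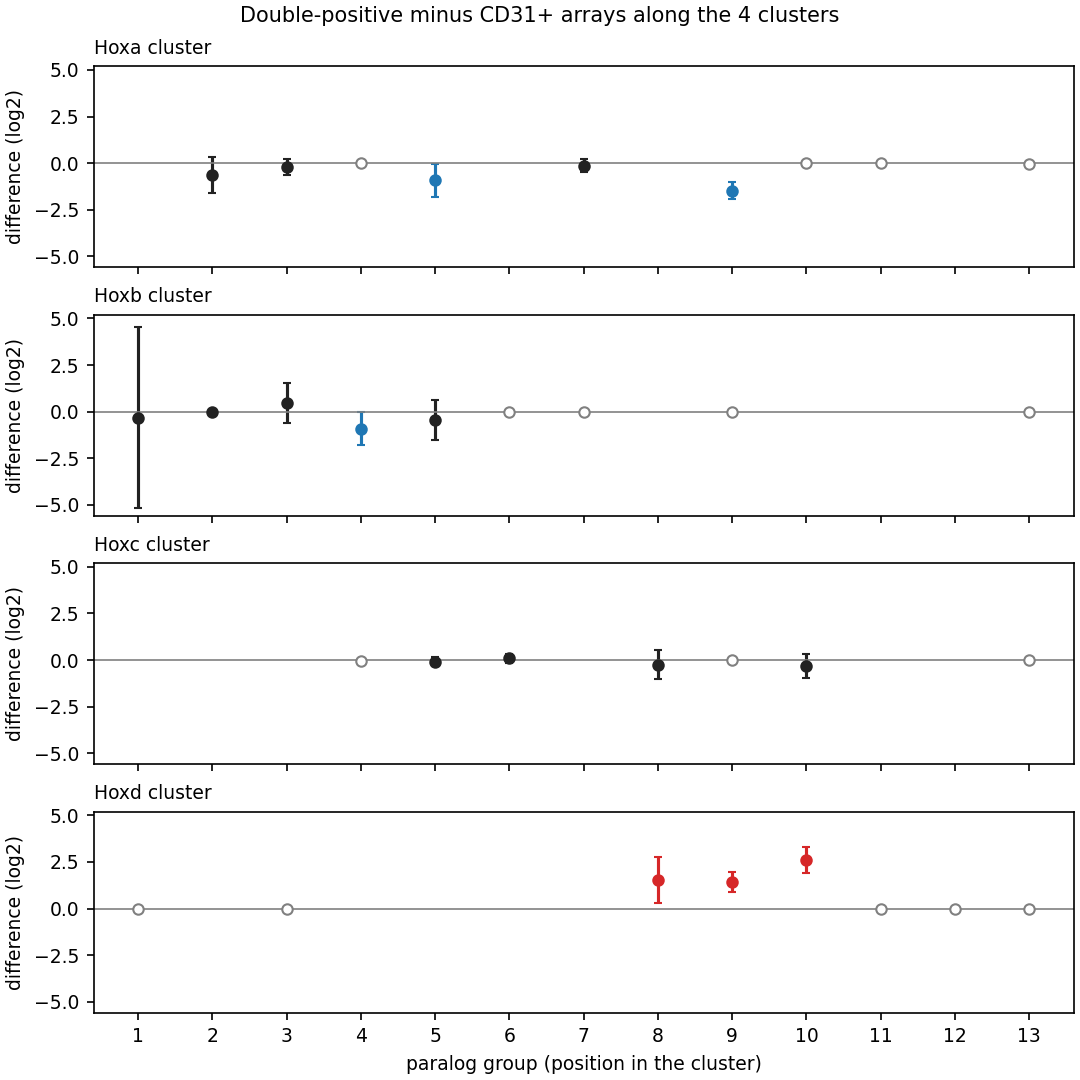
Difference between the double-positive and CD31+ arrays (log2, y axis) of 33 Hox genes against the paralog group number (x axis), 1 panel per cluster. Filled points carry the 95% confidence interval from limma, open points are genes whose 6 values span at most 0.1 and carry no interval, and red and blue mark unadjusted p under 0.05. The 3 red points are Hoxd8, Hoxd9 and Hoxd10, the blue ones Hoxa5, Hoxa9 and Hoxb4.

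Hoxa9, a factor of blood progenitors that is also reported to act on endothelial genes, lay lower in the double-positive arrays. It had 3.53, 3.12 and 3.32 there and 5.06, 4.73 and 4.64 on the CD31+ arrays, so that the difference was -1.48 (standard error 0.165, 95% confidence interval -1.93 to -1.04, limma adjusted p = 0.0623). The groups were apart by more than the spread within either. Another probe set of Hoxa9 stayed between 2.43 and 2.46 on all arrays and saw no difference.

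Paralogs of group 9 had differences of opposite sign in the Hoxa and Hoxd clusters, and their log ratio within an array does not move with the scaling of that array. The Hoxd9 value minus the Hoxa9 value of the same array was 0.85, 1.57 and 1.73 on the double-positive arrays and -1.70, -1.36 and -1.48 on the CD31+ arrays. This log ratio differed by 2.89 between the groups. The pair was chosen with the values of both genes known, and since neither gene overlapped between the groups their ratio had to separate too, so no test of it is given. The remaining measured paralogs of group 9, Hoxb9 and Hoxc9, were at 2.39 on every array. In group 10, Hoxa10 stayed at 2.39 to 2.40 and Hoxc10 had 2.39, 2.53 and 3.18 on the CD31+ arrays and 2.39 on the 3 others.

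Hoxb4, a factor that expands blood stem cells, had 4.24, 4.36 and 3.56 on the double-positive arrays and 5.34, 5.05 and 4.51 on the CD31+ arrays. Every same-numbered pair was lower in the double-positive array, and the groups came close without overlapping. The difference was -0.91 (standard error 0.334, limma adjusted p = 0.544), or 1.88-fold on the linear scale. The other probe set of Hoxb4 lay between 2.42 and 2.55.

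Hoxa5, which in endothelium is reported to restrain vessel growth, had 9.64, 9.98 and 10.02 on the double-positive arrays and 10.28, 10.72 and 11.41 on the CD31+ arrays at its brightest probe set. The difference was -0.92 (standard error 0.334, limma adjusted p = 0.535), with the CD31+ arrays higher throughout. The suffix _x_at of this probe set marks probes that can match other transcripts too. The other probe set of Hoxa5, without that suffix, had 3.60, 3.78 and 3.58 against 4.32, 3.58 and 3.58, a difference of -0.17 (limma adjusted p = 0.778) with overlapping groups. The disagreement of these probe sets leaves the level of Hoxa5 uncertain.

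**Figure D3:**
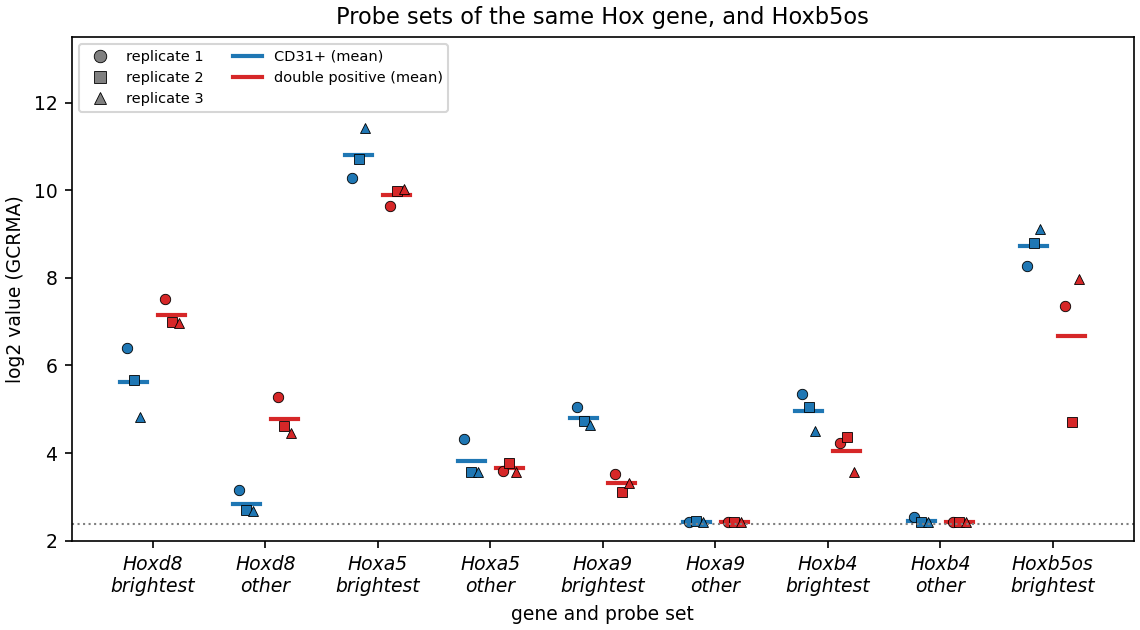
Log2 values (GCRMA, y axis) of each probe set of Hoxd8, Hoxa5, Hoxa9 and Hoxb4 and of the noncoding gene Hoxb5os (x axis). Points are arrays, with 1 marker shape per replicate number, bars are group means and the dotted line is the floor at 2.39. Both probe sets of Hoxd8 are higher in the double-positive arrays, whereas the other probe sets of Hoxa9 and Hoxb4 lie near the floor in both groups and that of Hoxa5 overlaps between groups.

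The remaining 27 genes showed no separation of the groups, with differences between -0.64 and 0.46. Of these, 16 spanned at most 0.1 over the 6 arrays and never exceeded 2.57, among them Hoxa4, Hoxa10, Hoxa11 and Hoxa13, Hoxb6, Hoxb7, Hoxb9 and Hoxb13, and Hoxc4, Hoxc9 and Hoxc13. Flat genes made up 48.5% of the Hox genes and 30.9% of all genes. Only 2 Hox genes, Hoxa5 and Hoxd8, reached a log2 value of 5 on at least 3 arrays, which is 6.06% of the Hox genes against 23.1% of all genes.

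The other 11 genes varied on 1 or a few arrays. Hoxa2, a gene of the hindbrain and the second arch, had 3.83, 3.15 and 2.52 on the CD31+ arrays and 2.52 on each double-positive array. Hoxb5 had 3.75 on CD31+ replicate 1 and 2.39 to 2.54 elsewhere, and Hoxc8 had 3.34 on that array and 2.39 to 2.66 elsewhere. The highest value of each of these 3 genes was on a CD31+ array, and the groups overlapped. Hoxa3, Hoxa7, Hoxb2 and Hoxc5 never exceeded 2.95. Hoxc6 had 3.36 to 3.64 with overlapping groups. Hoxb3, an early gene of the hindbrain and neck, had 6.12 on double-positive replicate 3 and 4.62 to 4.99 on the 5 others.

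Read by cluster, differences larger than 0.1 in size were 0 higher and 5 lower of 9 Hoxa genes, 1 higher and 3 lower of 9 Hoxb genes, 0 higher and 2 lower of 7 Hoxc genes, and 3 higher and 0 lower of 8 Hoxd genes. These counts describe signs at this scaling only, since none of the 33 genes passed the test and with centred arrays every Hox gene other than Hoxd8, Hoxd9 and Hoxd10 lay below 0. The lower Hoxb genes include Hoxb1, which was bright on the arrays numbered 2 of both groups. Some lower genes were dim and raised mainly on a single CD31+ array. Hoxa7 had 2.82 on CD31+ replicate 1 and 2.42 on the other arrays, and Hoxb5 and Hoxc8 had 3.75 and 3.34 on that replicate. The share of all genes with a difference beyond 0.1 was not computed. The median difference of the 33 genes was 0.00, as was that of all genes.

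Hoxb5os, a noncoding gene on the strand opposite to Hoxb5, was bright where Hoxb5 itself was dim. Its values were 7.35, 4.71 and 7.97 on the double-positive arrays and 8.27, 8.79 and 9.11 on the CD31+ arrays. The groups did not overlap, but double-positive replicate 2 stood far below the others. The difference was -2.05 (standard error 0.984, limma adjusted p = 0.659), and it was -1.06 without double-positive replicate 2. With the filter on dim probe sets described below it missed the threshold (limma adjusted p = 0.0556), and with the filter and the replicate block it passed as lower (limma adjusted p = 0.00668), as it did at -2.72 with the filter and centred arrays (limma adjusted p = 0.0193). Of 3 noncoding genes of the clusters that were measured, limma called 0 higher and 0 lower over all probe sets (0 and 0 by unadjusted p under 0.05), and Hoxa11os lay between 2.39 and 2.46 and Hoxd3os1 between 2.42 and 2.58.

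Restricting the test to brighter probe sets (at least 5 on no fewer than 3 arrays) left Hoxd8 and Hoxa5 of the Hox genes, and Hoxd8 then passed as higher (limma adjusted p = 0.0216). Among all genes left, 33.2% were called higher and 4.11% lower. When the replicate block was added to that filter, Hoxd8 passed as higher (limma adjusted p = 0.00242) and Hoxa5 as lower (limma adjusted p = 0.0238), beside 46.4% and 4.99% of all genes left. With the filter and centred arrays, Hoxa5 at -1.60 passed as lower (limma adjusted p = 0.0174) and Hoxd8, at 0.85, missed the threshold (limma adjusted p = 0.0881), beside 12.6% and 9.63%. With a single probe set per gene in the fit, Hoxd10 passed as higher (limma adjusted p = 0.0271) and Hoxa9 as lower (limma adjusted p = 0.0327), where 2.21% and 0.418% of all genes did.

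The cofactors of Hox proteins differed little. Of 8 measured genes of the Pbx, Meis and Pknox families, limma called 0 higher and 0 lower (0 and 0 by unadjusted p under 0.05), and the median difference was 0.05. Pbx3 had 7.21, 8.11 and 6.71 on the double-positive arrays and 7.36, 7.0 and 7.03 on the CD31+ arrays, with overlapping groups. Pknox1, which encodes the cofactor Prep1, had 4.25, 4.03 and 4.04 against 4.0, 3.78 and 4.0, higher in the double-positive arrays without overlap by a difference of 0.17 that turns to -0.50 with centred arrays. Meis2 had 8.86 to 9.06 at a probe set with the suffix _x_at, and 4 of its 6 values lay within 0.01 of the lowest, so that a probe set can also rest at a high lowest value. Pbx4, at -0.25, and Pknox2, at -0.08, were dim on all arrays.

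Trithorax and Polycomb genes did not pass the test. Of 27 measured, limma called 0 higher and 0 lower (3 and 1 by unadjusted p under 0.05, where 12.5% and 2.12% of all genes were). Rnf2, a ubiquitin ligase of Polycomb complexes, had 6.52, 7.23 and 6.59 against 5.17, 4.51 and 4.71, a difference of 1.98 (limma adjusted p = 0.103). Bmi1, its partner, had 7.82, 7.48 and 7.37 against 6.36, 6.70 and 5.36, a difference of 1.42, and Jarid2, a Polycomb subunit, differed by 0.91. Kmt2d, a histone methyltransferase of the Trithorax group, differed by -0.23. With centred arrays Rnf2 lay at 1.31, Bmi1 at 0.74 and Jarid2 at 0.23. With the filter on dim probe sets 3 of the 10 genes left passed as higher (Rnf2, Bmi1 and Jarid2) and 0 as lower. Of all genes left, 33.2% passed as higher, a share near theirs, and 4.11% as lower. With centred arrays as well 1 passed as higher (Rnf2) and 1 as lower (Kmt2d), beside 12.6% and 9.63% of all genes left. Jarid2 reached 5 only on the double-positive arrays, so it entered the filtered test through the group where it was high. The median difference of the 27 was 0.18, less than the shift of 0.68 from centring.

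Genes of retinoic acid signalling, which turns on Hox clusters in the embryo, were mostly dim. Of 16 measured, limma called 0 in either direction (0 and 0 by unadjusted p under 0.05), and 12 never reached a value of 3. Differences ran from -0.34 for Rdh10, a retinol dehydrogenase, to 0.26 for Rxrb, a retinoid receptor. Rxra, another such receptor, differed by -0.26, Aldh1a1, an enzyme that makes retinoic acid, by -0.18 and Rarg, a retinoic acid receptor, by -0.03.

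Among 13 homeobox genes related to the Hox family, 11 never reached a value of 3, and limma called 0 higher and 0 lower (1 and 0 by unadjusted p under 0.05, against 12.5% and 2.12% of all genes). Cdx1, Gsx1 and Gsx2 of the ParaHox group were among them, with differences of -0.02, -0.03 and 0.01. The exceptions were the Meox genes. Meox2, a homeobox gene of mesoderm and endothelium, had 8.56, 9.26 and 9.49 on the double-positive arrays and 6.43, 5.54 and 5.67 on the CD31+ arrays, so that the difference was 3.22 (standard error 0.377, limma adjusted p = 0.0683) that passed with the filter (limma adjusted p = 0.000333). Its groups lay far apart. Meox1 had 6.16, 5.81 and 5.80 against 6.53, 6.26 and 5.84, with overlapping groups and a difference of -0.28.

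Of 14 genes that flank the clusters, limma called 0 higher and 0 lower (1 and 0 by unadjusted p under 0.05, where 12.5% and 2.12% of all genes were), and their median difference was 0.27. Snx10, a sorting nexin gene beyond the Hoxa cluster, differed by 1.29 (limma adjusted p = 0.323), Hibadh, a valine catabolism gene also near Hoxa, by 0.88 (limma adjusted p = 0.567), Cbx1 by 0.57 and Skap1, which lies next to Hoxb1, by -0.17. With centred arrays Snx10 lay at 0.61 and Hibadh at 0.21, and Cbx1 turned to -0.11 and Mtx2 to -0.08.

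Of 11 genes reported as targets of Hox proteins in endothelium, limma called 0 higher and 0 lower (4 and 0 by unadjusted p under 0.05, where 12.5% and 2.12% of all genes were), and their median difference was 0.39. Nos3, the endothelial nitric oxide synthase, had 5.35, 5.60 and 5.36 on the double-positive arrays and 4.50, 4.66 and 4.41 on the CD31+ arrays, so that the difference was 0.91 (limma adjusted p = 0.0643). Angpt2, a ligand of the Tie2 receptor, had 6.98, 6.61 and 6.15 against 4.98, 4.75 and 4.46, a difference of 1.85 (limma adjusted p = 0.105). The groups lay apart for both. The integrin genes Itgb3 and Itgb1 differed by 1.79 (limma adjusted p = 0.131) and 0.76 (limma adjusted p = 0.498). With the filter 2 of the 3 genes left, Nos3 and Angpt2, passed as higher and 0 as lower, beside 33.2% and 4.11% of all genes left. Both reached 5 only on the double-positive arrays, so they entered the filtered tests through the group where they were high. Their filtered calls are thus no separate support for a difference. With the filter and centred arrays 1 passed as higher, Angpt2 at 1.17 (limma adjusted p = 0.0111), and Nos3 at 0.23 lost its call (limma adjusted p = 0.578). In that fit 12.6% of all genes left passed as higher and 9.63% as lower. Centring alone brought Itgb3 to 1.11 and Itgb1 to 0.08. Kdr, a VEGF receptor, differed by 0.65, or by -0.02 with centred arrays, and Sele, which encodes E-selectin, stayed at 2.39 to 2.44.

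**Figure D4:**
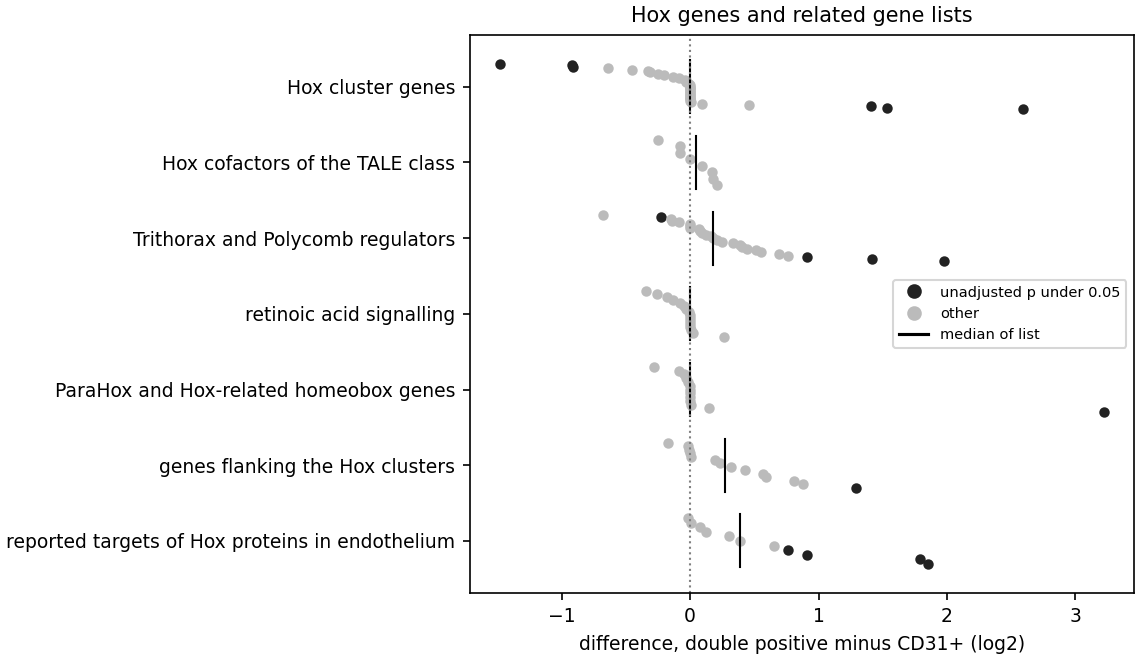
Difference between the double-positive and CD31+ arrays (log2, x axis) of the 33 Hox genes and of the members of 6 lists of related genes (y axis), each gene at its brightest probe set. Points are genes, dark where the unadjusted p from limma was under 0.05, and vertical lines are list medians. Most Hox genes sit near 0, with Hoxd8, Hoxd9 and Hoxd10 to the right and Hoxa9, Hoxa5 and Hoxb4 to the left.

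Markers of other cell types moved with the groups in part. Of 9 markers of fibroblastic reticular cells, limma called 1 higher and 0 lower (1 and 5 by unadjusted p under 0.05, where 12.5% and 2.12% of all genes were), and their summed linear level (arbitrary units) ran from 183 to 264 on the double-positive arrays and from 246 to 841 on the CD31+ arrays. With the filter on dim probe sets, with the filter and the replicate block, and with the filter and centred arrays, 1 of the 6 markers left passed as higher (Thy1) and 4 as lower (Pdgfrb, Col1a2, Col3a1 and Dpt). Of all genes left, 33.2%, 46.4% and 12.6% passed as higher in these fits, in that order, and 4.11%, 4.99% and 9.63% as lower. Thy1 reached 5 only on double-positive arrays, and Pdgfrb, Col1a2 and Dpt only on CD31+ arrays. These genes thus entered the filtered tests through the group where they were high, and their calls there are no separate support. Over all probe sets Pdgfra, a receptor of fibroblasts, differed by -1.41, Pdgfrb by -2.92, Dpt by -1.43, Dcn by -0.32 and the collagen genes Col1a2 and Col3a1 by -3.11 and -3.15, while Thy1 passed as higher at 3.03 (limma adjusted p = 0.0232). On the CD31+ arrays Pdgfrb had 7.06, 8.50 and 5.12, Col1a2 7.10, 6.77 and 5.48 and Col3a1 7.94, 7.44 and 6.29, whereas Col1a1 and Lum stayed under 2.9 on all 6 arrays. The summed level of 10 pericyte and smooth muscle markers ran from 293 to 320 and from 161 to 574, and that of 5 markers of blood stem and progenitor cells from 77.7 to 126 and from 77.4 to 82.8. Rgs5, the brightest of the pericyte and smooth muscle markers on every array, differed by 0.33 with overlapping groups. Others of that list went both ways, with Acta2 at -2.34 (limma adjusted p = 0.365), Notch3 at -1.63 and Kcnj8 at 1.38. For 6 erythrocyte and platelet markers the sums were 344 to 581 and 118 to 351, for 8 myeloid markers 48.3 to 49.8 and 47.9 to 69.5, for 7 T cell markers 257 to 495 and 689 to 819, and for 5 B cell markers 30.2 to 30.8 and 30.2 to 32. Single probe sets carried some of these sums. Among the blood stem and progenitor markers it was Gata2 (6.67, 5.84 and 5.79 against 5.81, 5.60 and 5.79). Kit, Myb, Flt3 and Gfi1 stayed between 2.39 and 3.66. Among the T cell markers it was Cd8a, at a probe set with the suffix _x_at (8.50, 8.83 and 7.79 against 9.60, 9.38 and 9.34), while the other markers of that list, Cd3d, Cd3e and Cd3g among them, stayed between 2.39 and 3.29. Among the erythrocyte and platelet markers it was Pf4, a platelet chemokine (8.13, 9.03 and 8.34 against 6.46, 8.31 and 8.24), with Itga2b at 4.49 to 5.44 against 3.04 to 3.52, while Hba-a1, Alas2, Slc4a1 and Gp9 stayed between 2.39 and 2.58. The part of these cells in the values of Hoxa9, Hoxb4, Hoxa5 or the Hoxd genes was not tested.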

How the data were processed

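Endothelial cells sorted from pooled LN were hybridized to 6 mouse arrays by the authors, who normalized them with GCRMA, and what they deposited is a relative log2 abundance of RNA for every probe set. Versions are not given in the sources used here. Probe sets were named from the platform table, with current symbols from RefSeq (GRCm38.p6) for 34741 of 34945 single-gene probe sets. The groups were compared by limma 3.58.1 (lmFit, then eBayes; R 4.3.3) on all 45037 non-control probe sets, without filter or block, with Benjamini-Hochberg adjustment at 5% FDR, after a run on simulated data. P-values measure the spread between these pooled samples.

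Values on each array are given for Hox genes with an unadjusted p under 0.05 or a log2 value of at least 5 on at least 3 arrays, and up to 4 genes of each list are named by adjusted p. Other genes were named with their values in view. The members and lists were chosen with earlier results of these data known. After group means were subtracted, arrays sharing a number correlated at 0.341, 0.475 and 0.418 (5764 probe sets averaging 5 or more). Since the design text also calls the samples paired, the numbers were taken to pair the arrays in the replicate block. The main fit has no block, so its p-values do not use this pairing. Alternatives were the replicate block, the filter on dim probe sets, centring, other eBayes settings, array weights, averaged or single probe sets, 1% FDR and each array left out. Leaving out both arrays numbered 2 or probe sets ending in _x_at was added after the data were seen. Figures were drawn with matplotlib 3.10.9. Listed genes without a probe set of their own were not analysed here.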

Additional observations from a re-analysis of the deposited data

How the results depend on the processing

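The counts of Hox genes called, 0 higher and 0 lower, stayed at 0 and 0 under the replicate block, at 1% FDR, with any probe set of a gene, with trended and robust eBayes, with array weights, without both arrays numbered 2 and without probe sets ending in _x_at. Each of the 6 arrays was also dropped in turn, with 0 to 0 higher and 0 to 0 lower. The counts were 1 and 0 with the filter on dim probe sets, 1 and 1 with the filter and the replicate block, 0 and 1 when the filter was joined to centring, 1 and 1 with probe sets averaged per gene and 1 and 1 with 1 probe set per gene. With centred arrays and no filter they were 3 and 29. Of all genes, 2.21% were called higher and 0.418% lower with 1 probe set per gene, and the filtered shares are given above. No share of all genes was computed for averaged probe sets or for centring without the filter. The counts from those fits therefore have no background beside them. Centring lowers every difference by 0.68, so probe sets at the floor in both groups took on that difference. Hoxd1, flat on all arrays, then had -0.68 (standard error 0.249, against 0.000827 before centring) and passed as lower (limma adjusted p = 0.0128). The signs of the 6 genes held under every alternative run. Since their groups did not overlap, leaving out arrays, the block, the filter, other eBayes settings or array weights could not turn a sign. Only centring and a change of the probe sets used could have done so. Hoxd10 ran from 1.91 to 2.76, Hoxd9 from 0.73 to 1.58, Hoxd8 from 0.85 to 1.91, Hoxa9 from -2.16 to -0.75, Hoxb4 from -1.59 to -0.48 and Hoxa5 from -1.60 to -0.17, the last at its probe set without the suffix _x_at. The adjusted p of Hoxd10 ran from 2.49e-09, with centred arrays, to 0.308. The lowest comes from the fit in which flat genes pass too. Only Hoxd8 and Hoxa5 could be tested with the filter. Over all probe sets limma estimated 0.356 prior degrees of freedom, against 4.92 over the 6088 left by the filter.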

Other observations

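Hoxb1, a gene of the hindbrain, had log2 values of 6.86 and 5.86 on the CD31+ and double-positive arrays numbered 2 and 2.39 on the 4 other arrays. Meis1, a Hox cofactor, showed the same shape at its brightest probe set, with 4.93 and 5.58 on these arrays and 2.40 to 2.45 on the others. The control probe set for B1 repeats, a short interspersed element of the mouse genome, had 12.28 and 12.84 on the arrays numbered 2 and 7.47 to 8.11 on the others. The high values thus follow the replicate number and not the group, and the difference between the groups was -0.33 for Hoxb1 and 0.18 for Meis1. The part of the repeat signal in these values was not tested.

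Hox probe sets shared by a pair of genes stayed dim. That of Hoxb7 and Hoxb8 lay between 2.48 and 2.74, and its difference was -0.10 (limma adjusted p = 0.659).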
